A study of Homo sapiens with 4 samples.

Results

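The integrin and laminin genes were taken from the gene probes of each array by their symbols, those of the ITGA, ITGB, LAMA, LAMB and LAMC families. The selection found 37 genes among the 27739 gene-level features of the arrays, namely 17 integrin alpha chains, 8 integrin beta chains and 12 laminin chains, read by 46 probes under 39 gene IDs. *ITGA1* was not among the symbols found. The study used LN229, a human glioblastoma line, and compared cells after transient transfection with siRNA against *SOX2* (*SOX2* knockdown) with cells given a control siRNA that has no target (mock). There were 2 arrays per group, described in the study's methods as biological replicates that included the transfection. All cells were grown in the same medium and carried no other alteration named in the labels. The methods name a pair of siRNAs against *SOX2* and do not say which of them was used for which array, and 1 label field names SW620, a colon cancer line, in place of LN229. Every signal is expressed as a multiple of its array's 75th percentile, and a feature was compared where both arrays of a group had an S/N (signal over its own error) above 3. This left 18378 features, among them 23 of the 37 members (12 integrin alpha, 5 integrin beta and 6 laminin chains), each of which had an S/N over 3 on all 4 arrays.

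Integrins are cell surface receptors built from an alpha and a beta chain, which bind proteins of the extracellular matrix or of neighbouring cells and join them through adaptor proteins to the actin cytoskeleton. Laminins are secreted trimers of an alpha, a beta and a gamma chain that form the sheet-like basement membrane together with type IV collagen, nidogens and perlecan, and several integrins are their receptors. In glioma both families are known for their part in the invasion of brain tissue and in the growth of tumour vessels.

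The 250 bases before the start site are shown for the genes of 3 laminin chains whose signals were lower after knockdown, *LAMA4*, *LAMB1* and, by the brighter of its 2 features, *LAMC1*, and for *ITGB8*, the member with the largest log2 difference above 0. Sequences are from RefSeq (GRCh38.p14), 5′ to 3′ on the strand of the gene, and capitals mark the letters of a GC box (GGGCGG or, on the other strand, CCGCCC).
LAMA4 (chr6:112254568-112254817, minus strand): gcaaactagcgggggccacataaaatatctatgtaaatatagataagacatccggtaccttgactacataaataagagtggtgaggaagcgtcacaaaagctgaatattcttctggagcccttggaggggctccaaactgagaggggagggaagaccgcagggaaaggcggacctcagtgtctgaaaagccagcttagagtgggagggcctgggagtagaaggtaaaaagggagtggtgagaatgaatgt
LAMB1 (chr7:108003162-108003411, minus strand): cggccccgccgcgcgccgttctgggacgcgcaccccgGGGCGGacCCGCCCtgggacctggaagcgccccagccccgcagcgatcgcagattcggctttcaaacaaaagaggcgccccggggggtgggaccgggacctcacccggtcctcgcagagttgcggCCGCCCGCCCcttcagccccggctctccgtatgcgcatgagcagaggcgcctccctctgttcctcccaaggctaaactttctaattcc
LAMC1 (chr1:183023170-183023419, plus strand): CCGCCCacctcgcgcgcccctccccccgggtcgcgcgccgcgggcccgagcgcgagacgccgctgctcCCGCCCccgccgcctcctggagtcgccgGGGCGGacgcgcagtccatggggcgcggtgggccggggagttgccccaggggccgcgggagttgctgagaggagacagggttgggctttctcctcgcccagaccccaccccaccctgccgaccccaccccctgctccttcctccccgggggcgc
ITGB8 (chr7:20330650-20330899, plus strand): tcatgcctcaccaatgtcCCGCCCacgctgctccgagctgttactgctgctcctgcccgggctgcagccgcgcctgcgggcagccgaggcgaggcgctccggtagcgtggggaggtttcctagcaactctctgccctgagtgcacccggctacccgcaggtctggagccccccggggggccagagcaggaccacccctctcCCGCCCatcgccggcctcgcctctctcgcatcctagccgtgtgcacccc
With overlapping matches counted, the *LAMB1* window held 4 GC boxes, the *LAMC1* window 3, the *ITGB8* window 2 and the *LAMA4* window 0. The share of G and C was 48.4% in the *LAMA4* window, 70.4% for *LAMB1*, 71.2% for *ITGB8* and 79.6% for *LAMC1*, so that the 3 laminin genes did not share this feature. Promoter sequences were found for 25 of the 37 members, and those of *ITGA3*, *ITGA7*, *ITGA9*, *ITGAD*, *ITGAL*, *ITGAX*, *ITGB2*, *ITGB3*, *ITGB4*, *LAMA1* and *LAMC3* were among those not found. A GC box was in 52.0% of the 25 windows and in 42.3% of all 27305. The core letters read by SOX proteins, ATTGTT or AACAAT on either strand, were searched from 250 bases before to 50 bases after the start site. They were present in 10.3% of all promoters and in 1 of the 25 members (4.0%), *ITGB7*, which did not pass the filter. A match in these letters is a description of the sequence and not of a bound site.

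The target was examined first. *SOX2* gave 0.454 and 0.682 in mock cells and 0.204 and 0.145 after knockdown, a ratio of means of 0.308. Its S/N was 5.17 and 13.6 in mock cells and 3.17 and 3.06 after knockdown, the latter just above the limit of 3. Both knockdown arrays were below both mock arrays, and the log2 difference was -1.69 (SE 0.28, limma adjusted p = 0.114). Between 63.5% and 68.9% of the 33096 gene probes had an S/N over 3 on each array. Replicate arrays differed, in the median over the 23 members, by 0.14 (mock) and 0.19 (knockdown) on the log2 scale, against 0.22 and 0.16 over all features. Of 8 markers of glioblastoma or mesenchymal lines 6 passed the filter, among them *VIM* and *CD44*, whereas *FN1* had an S/N over 3 on 2 arrays and *COL1A2* on none. Of 8 markers of colon epithelium 4 passed (*CDH1*, *CDX2*, *LGALS4* and *VIL1*). *KRT20* had an S/N over 3 on no array, while *CDH1*, the cadherin of epithelia, ranged from 13.9 to 49.2 over the 4 arrays with groups that overlapped. *CDX2* and *LGALS4* had an S/N over 3 on both mock arrays and on neither knockdown array, so they passed through the mock group alone. Their log2 differences of -0.60 and -0.58, with knockdown arrays below mock arrays, were therefore in the direction that the filter favours. *EPCAM* had an S/N over 3 on 1 array. The summed signal of the 8 colon markers was 14.1 to 49.5 on the mock arrays and 22.2 to 47.0 on the knockdown arrays. Nearly all of this sum came from *CDH1*. The part of these markers in the values of the members was not tested. In RNA of whole cultures, fewer cells of a type and less RNA per cell cannot be told apart.

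After *SOX2* knockdown, lower signals were found for 3 laminin chains (*LAMA4*, *LAMB1* and *LAMC1*) and 3 integrin chains (*ITGA3*, *ITGAV* and *ITGB5*), and a higher signal for 1 integrin chain (*ITGB8*). These 7 genes are the members with an unadjusted limma p under 0.05, with *LAMC1* counted by the brighter of 2 features that differed in direction. None of the 23 members had an adjusted p under 0.05, and none of the 18378 features did, with limma and Benjamini-Hochberg adjustment. With median scaling, no further scaling or the authors' table of ratios, 2 members (*LAMA4* and *ITGB8*) had an adjusted p under 0.05, beside 669, 650 and 639 of all 18378 features. At an adjusted p under 0.1 the count of members was also 0, beside 0.278% of all features lower and 0.626% higher. The 6 members lower at an unadjusted p under 0.05 were 26.1% of those measured, beside 9.07% of all features, and the 1 higher was 4.35%, beside 8.12%. By the fold of replicate means, 5 members (21.7%) were lower by more than 1.5-fold, beside 4.78% of all features, and 1 (4.35%) was higher, beside 5.08%. The 5 were *ITGA3*, *ITGAV*, *ITGB5*, *LAMA4* and *LAMC1*. No member passed 2-fold in either direction, where 0.909% of all features were lower and 1.47% higher. *LAMA4* with a ratio of 0.510 and *ITGB8* with a ratio of 2.0, under the cutoff before rounding, were the nearest to it.

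Counted by single arrays, both knockdown arrays were below both mock arrays for 12 of the 23 members (52.2%), beside 25.7% of all features, and above them for 4 (17.4%), beside 21.6%. The log2 difference was below 0 for 15 members and above 0 for 8, beside 49.7% and 50.3% of all features, and its median was -0.20, against 0.00 over all features. By class, the median was -0.39 for laminin chains and -0.16 for integrin alpha chains. For integrin beta chains it was -0.06, and 0.16 without the second knockdown array. With 1 array left out, the log2 differences of the 6 lower members stayed below 0, the smallest being -0.33 for *LAMB1* and -0.44 for *ITGA3*. Not all of the 6 kept an unadjusted limma p under 0.05 in these fits, and without the second knockdown array *LAMA4* alone did.

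**Figure D1:**
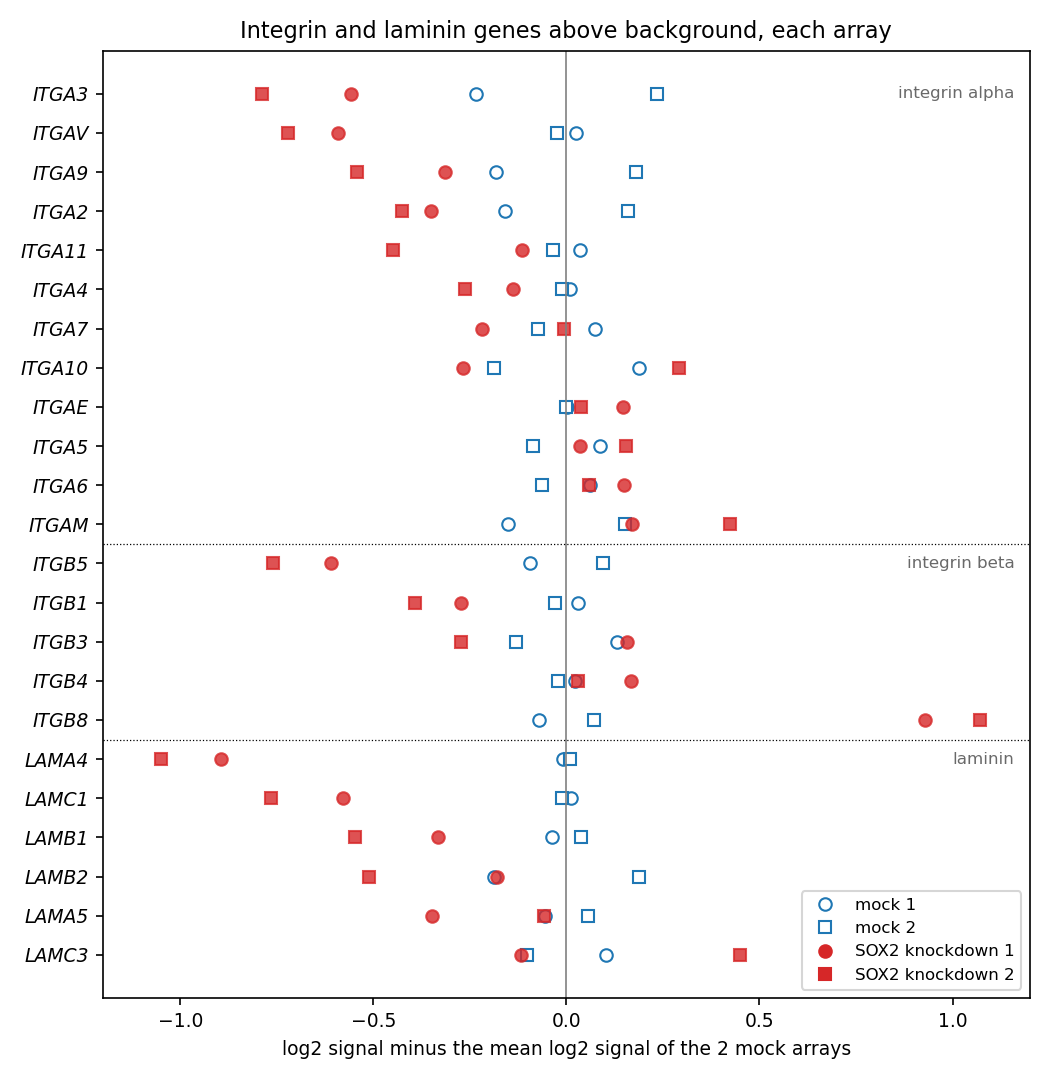
Each row is 1 of the 23 members above background and each symbol 1 array, plotted as its log2 signal minus the mean log2 signal of the 2 mock arrays. LAMA4 has both knockdown arrays near -1 and ITGB8 near 1 on this log2 scale, while ITGA6, ITGA10 and LAMB2 are among the rows where knockdown and mock arrays overlap.

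Among the laminin chains, *LAMA4* encodes the alpha chain that is typical of vessel walls and of mesenchymal cells. Its signal was 28.3 and 28.6 in mock cells and 15.3 and 13.7 after knockdown. The mock arrays differed by little and both knockdown arrays were far below them, with a log2 difference of -0.97 (SE 0.13, limma adjusted p = 0.101). *LAMA4* was the only member lower at an unadjusted p under 0.05 in all 18 alternatives, and its log2 difference was between -1.05 and -0.90 when 1 array was left out. *LAMB1* encodes the beta chain and *LAMC1* the gamma chain found in most laminins, and both can assemble with the *LAMA4* product. *LAMC1* gave 9.19 and 9.04 in mock cells and 6.10 and 5.36 after knockdown, a ratio of 0.629. *LAMB1* gave 11.9 and 12.5 in mock cells and 9.68 and 8.34 after knockdown, a ratio of 0.739. For neither gene did the groups overlap. The log2 difference of *LAMC1* was -0.67 (SE 0.13, limma adjusted p = 0.135) and that of *LAMB1* was -0.44 (SE 0.14, limma adjusted p = 0.24). *LAMB1* kept an unadjusted p under 0.05 in 10 of the 18 alternatives and *LAMC1* in 17.

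The other measured laminin chains had no unadjusted p under 0.05. *LAMB2*, the beta chain known from synapses and the kidney filter, gave 3.002 and 3.89 in mock cells and 3.02 and 2.40 after knockdown. The groups overlapped, and the log2 difference was -0.35 (SE 0.21, limma adjusted p = 0.494). *LAMA5*, the most widespread alpha chain of adult basement membranes, gave 0.876 and 0.948 in mock cells and 0.716 and 0.876 after knockdown. The first mock and the second knockdown array had the same value when rounded, so that *LAMA5* counts among the 12 members without overlap by a narrow margin, with a log2 difference of -0.20 (SE 0.16, limma adjusted p = 0.624). *LAMC3* gave 0.199 and 0.173 in mock cells and 0.171 and 0.253 after knockdown. This gamma chain overlapped between groups, with a log2 difference of 0.17 (SE 0.24, limma adjusted p = 0.827) that was -0.12 without the second knockdown array. With normexp correction of the raw reading it was 0.54 with an unadjusted limma p of 0.0132, and *LAMC3* was then the 1 member higher at that threshold.

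**Figure D2:**
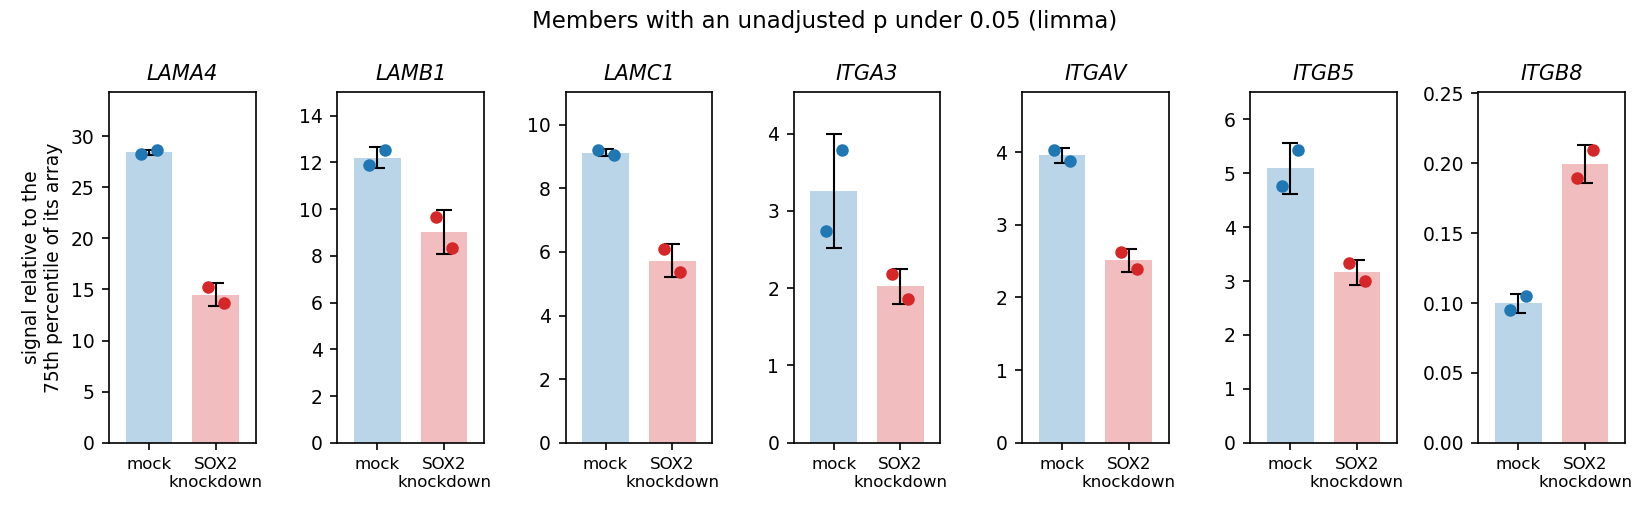
Signal relative to the 75th percentile of its array for the 7 members with an unadjusted limma p under 0.05, with points for single arrays, bars for the mean of 2 arrays and error bars for the SD. Both knockdown points lie below both mock points for LAMA4, LAMB1, LAMC1, ITGA3, ITGAV and ITGB5 and above them for ITGB8, and each panel has its own axis from 0.

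There were 6 members with more than 1 probe. *LAMC1* was read by probes of a pair of gene IDs, and these differed in direction. The values above are those of the brighter feature, hCG40729.2. The other feature, hCG1770271.2, gave 1.25 and 1.30 in mock cells and 1.70 and 1.66 after knockdown. It was higher after knockdown with groups that did not overlap, a ratio of 1.32 and a log2 difference of 0.40 (SE 0.12, limma adjusted p = 0.224). Which part of *LAMC1* each probe reads is not given in the sources used here, so the direction of *LAMC1* rests on the choice of feature. So do its place among the 6 lower members, the 5 lower by more than 1.5-fold and the 12 without overlap. The laminin median of -0.39 was likewise taken with the brighter feature. By contrast the 2 probes of *ITGB1* were both lower after knockdown, with ratios of 0.818 and 0.691. *ITGAM* had 4 probes, of which 2 had an S/N under 3 on every array, and the other two had ratios of 1.29 and 1.18, the former with separate and the latter with overlapping groups.

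**Figure D3:**
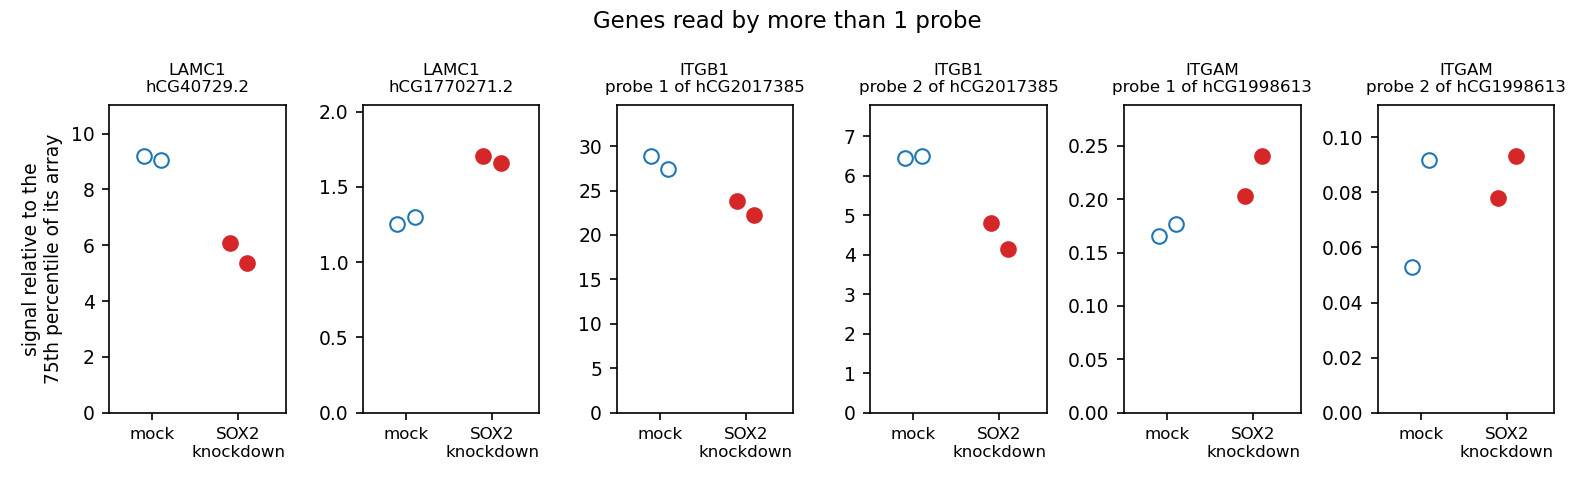
Signal relative to the 75th percentile of its array for the 2 features of LAMC1, the 2 probes of ITGB1 and the 2 brighter probes of ITGAM, with open points for mock and filled points for knockdown arrays. The LAMC1 features move in opposite directions, both ITGB1 probes are lower after knockdown, and each panel has its own axis from 0.

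The main laminin receptors share a few chains, with *ITGB1* or *ITGB4* as the beta chain and *ITGA3*, *ITGA6* or *ITGA7* as the alpha chain. *ITGA3* gave 2.74 and 3.78 in mock cells and 2.19 and 1.86 after knockdown. The mock arrays differed from each other more than the knockdown arrays did, and both were above the knockdown arrays. The ratio was 0.621 and the log2 difference -0.67 (SE 0.21, limma adjusted p = 0.234), with values from -0.91 to -0.44 when 1 array was left out. *ITGA6* gave 14.7 and 13.5 in mock cells and 15.7 and 14.7 after knockdown. Its groups overlapped, with a log2 difference of 0.10 (SE 0.13, limma adjusted p = 0.792). *ITGA7*, best known from muscle, gave 0.136 and 0.123 in mock cells and 0.111 and 0.129 after knockdown, which also overlapped. Its log2 difference was -0.11 (SE 0.15, limma adjusted p = 0.811).

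*ITGB1*, the beta chain of most matrix receptors, gave 17.7 and 16.9 in mock cells and 14.3 and 13.2 after knockdown. The groups did not overlap, but the log2 difference of -0.33 (SE 0.13) had an unadjusted p of 0.053 and an adjusted p of 0.299 by limma. *ITGB4*, the partner of *ITGA6* in hemidesmosomes, gave 0.623 and 0.604 in mock cells and 0.689 and 0.626 after knockdown. The knockdown arrays were above the mock arrays by a margin smaller than the spread of the knockdown arrays, with a log2 difference of 0.10 (SE 0.13, limma adjusted p = 0.808). Among the laminin receptor chains, an unadjusted p under 0.05 was thus reached by *ITGA3* alone in this fit.

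The receptors for vitronectin and for latent TGF-beta are built on the *ITGAV* chain. *ITGAV* gave 4.02 and 3.88 in mock cells and 2.62 and 2.40 after knockdown, a ratio of 0.635. Its partner *ITGB5* gave 4.76 and 5.42 in mock cells and 3.33 and 3.002 after knockdown, a ratio of 0.622. In both genes the knockdown arrays were well below the mock arrays. The log2 difference was -0.66 for *ITGAV* (SE 0.13, limma adjusted p = 0.132) and -0.68 for *ITGB5* (SE 0.14, limma adjusted p = 0.143). With 1 array left out, *ITGAV* was between -0.72 and -0.59 and *ITGB5* between -0.78 and -0.59, and without the second knockdown array neither had an unadjusted p under 0.05.

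*ITGB8*, another partner of *ITGAV* that activates latent TGF-beta, differed in the opposite direction. Its signal was 0.0947 and 0.105 in mock cells and 0.190 and 0.209 after knockdown. Both knockdown arrays were above both mock arrays with a log2 difference of 1.0 (SE 0.14, limma adjusted p = 0.101). Its S/N was 5.84 and 10.8 in mock cells and 14.9 and 34.1 after knockdown, so all 4 values were above background. The size of the difference depended on how background was treated, since normexp correction of the raw reading gave a log2 difference of 0.45 without an unadjusted p under 0.05. *ITGB3*, the beta chain shared with platelets, gave 0.753 and 0.628 in mock cells and 0.767 and 0.569 after knockdown. These overlapped, with a log2 difference of -0.06 (SE 0.21, limma adjusted p = 0.948). *ITGB6*, a further partner of *ITGAV*, was not above background. *ITGA5*, the alpha chain of the fibronectin receptor, had a log2 difference of 0.10 with overlapping groups.

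Collagen receptors pair *ITGB1* with *ITGA2*, *ITGA10* or *ITGA11*. *ITGA2* gave 0.777 and 0.969 in mock cells and 0.680 and 0.645 after knockdown. The groups did not overlap, with a log2 difference of -0.39 (SE 0.16, limma adjusted p = 0.335). *ITGA11* was also lower on both knockdown arrays, with a log2 difference of -0.28, which was 0.07 with normexp correction. *ITGA10* overlapped, with a log2 difference of 0.01. *ITGA9*, a receptor chain for tenascin, and *ITGA4*, a receptor chain for fibronectin and *VCAM1*, had log2 differences of -0.43 and -0.20. In both the knockdown arrays were below the mock arrays, and neither had an unadjusted p under 0.05.

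Of the integrin chains known mainly from leukocytes, *ITGAE* and *ITGAM* passed the filter, and *ITGA4*, which leukocytes also carry, is given above. *ITGAE*, which pairs with *ITGB7* and binds E-cadherin, had a log2 difference of 0.09, and *ITGAM*, a receptor chain of myeloid cells, of 0.30, with an unadjusted limma p of 0.494 and 0.164. In both genes the knockdown arrays were above the mock arrays. *ITGB2*, the beta chain without which *ITGAL*, *ITGAM*, *ITGAX* and *ITGAD* do not reach the cell surface, had an S/N over 3 on no array. Nor did *PTPRC*, which all leukocytes carry, and the summed signal of 6 leukocyte markers was 1.64 to 2.49 on the mock arrays and 1.72 to 2.34 on the knockdown arrays. Of 12 ligands of leukocyte integrins 7 passed the filter, of which 0 had an unadjusted p under 0.05, and their median log2 difference was -0.01.

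The 14 members that did not pass the filter included *ITGA2B*, *ITGA8*, *ITGAD*, *ITGAL*, *ITGAX*, *ITGB2*, *ITGB6*, *ITGB7*, *LAMA1*, *LAMA2*, *LAMA3*, *LAMB3* and *LAMB4*. With S/N averaged over the probes of a gene ID, it was over 3 on no array for 10 of them. It was over 3 on 1 array for *ITGAD* and on 2 arrays for *ITGB7* and for *LAMA2*. They include the platelet chain *ITGA2B* and the epithelial laminin chains *LAMA3* and *LAMB3*. No fold is given for these genes, since neither group had such an averaged S/N over 3 on both of its arrays. Single probes could exceed it, as 1 of the 2 *ITGAD* probes did on 3 arrays, both knockdown arrays among them, while the other stayed under 3 on every array. Single probes of *ITGAX* and *LAMA1* were also over 3 on at least 1 array. In RefSeq's gene table, *LAMB1* and *LAMB4* were neighbours with 0 protein-coding genes between them, and only *LAMB1* passed the filter.

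Among proteins that bind laminins or integrins in the matrix, lower signals were found for type IV collagen chains and nidogens. Of 20 genes on this list 16 passed the filter. At an unadjusted p under 0.05, 8 were lower and 2 higher, and 2 of the lower ones, *COL4A1* and *NID2*, had an adjusted p under 0.1. Over all features 9.07% were lower and 8.12% higher at the former threshold, and 0.278% lower at the latter. The median log2 difference was -0.42, and 3 genes were lower by more than 2-fold, beside 0.909% of all features. *COL4A1*, a chain of the type IV collagen of basement membranes, gave 0.823 and 0.888 in mock cells and 0.315 and 0.243 after knockdown, a log2 difference of -1.63 (limma adjusted p = 0.086). *NID2*, a nidogen that links laminin to type IV collagen, gave 0.639 and 0.646 in mock cells and 0.305 and 0.291 after knockdown, a log2 difference of -1.11 (limma adjusted p = 0.086). The groups were far apart in both genes. *COL4A2*, the usual partner of *COL4A1*, gave 13.3 and 15.2 in mock cells and 7.78 and 6.45 after knockdown, a log2 difference of -1.01 (limma adjusted p = 0.112). The other nidogen, *NID1*, had a log2 difference of -0.79 (limma adjusted p = 0.195).

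*EMILIN1*, an elastic fibre protein, *CTGF*, a matrix-associated growth regulator, and *FBN1*, the main protein of microfibrils, had log2 differences of -0.97, -0.83 and -0.57. *THBS1*, an adhesive glycoprotein, gave 1.79 and 1.604 in mock cells and 3.56 and 2.76 after knockdown, a log2 difference of 0.89 (limma adjusted p = 0.135). *NOV*, of the same family as *CTGF*, had a log2 difference of 0.56. Thus not all matrix genes of the list were lower. *HSPG2* (perlecan), a proteoglycan of basement membranes, had an S/N over 3 on no array.

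Inside the cell, integrins are tied to actin by the proteins of focal adhesions. Of 30 such genes 29 passed the filter, 6 lower and 1 higher at an unadjusted p under 0.05, beside 9.07% and 8.12% of all features. Their median log2 difference was -0.07 and none passed 2-fold. *CSRP1*, a LIM domain protein of actin bundles, gave 16.3 and 16.9 in mock cells and 9.13 and 8.41 after knockdown, a log2 difference of -0.92 (limma adjusted p = 0.101). *NEDD9*, a docking protein of focal adhesion kinase, and *ZYX*, zyxin, had log2 differences of -0.77 and -0.62. *FERMT3*, the kindlin of blood cells, was higher, with a log2 difference of 0.69. Its signal was low, 0.0417 and 0.041 in mock cells and 0.068 and 0.0654 after knockdown. The S/N was 4.19 and 3.04 in mock cells, close to the limit of 3, and 24.7 and 6.1 after knockdown. The kindlin of adherent cells, *FERMT2*, and the kinases *PTK2* and *ILK* had log2 differences of 0.27, -0.05 and -0.12, and none of these 3 had an unadjusted p under 0.05.

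All 16 genes of other laminin receptors and integrin-associated membrane proteins passed the filter, with 3 lower and 0 higher at an unadjusted p under 0.05, beside 9.07% and 8.12% of all features. Their median log2 difference was -0.18. *CD151*, a tetraspanin that binds the laminin receptor integrins, gave 4.94 and 5.48 in mock cells and 3.19 and 3.09 after knockdown. Its groups were separate, with a log2 difference of -0.73 (limma adjusted p = 0.121). *DAG1*, dystroglycan, the main laminin receptor that is not an integrin, and *PLAUR*, the urokinase receptor, had log2 differences of -0.48 and -0.40.

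**Figure D4:**
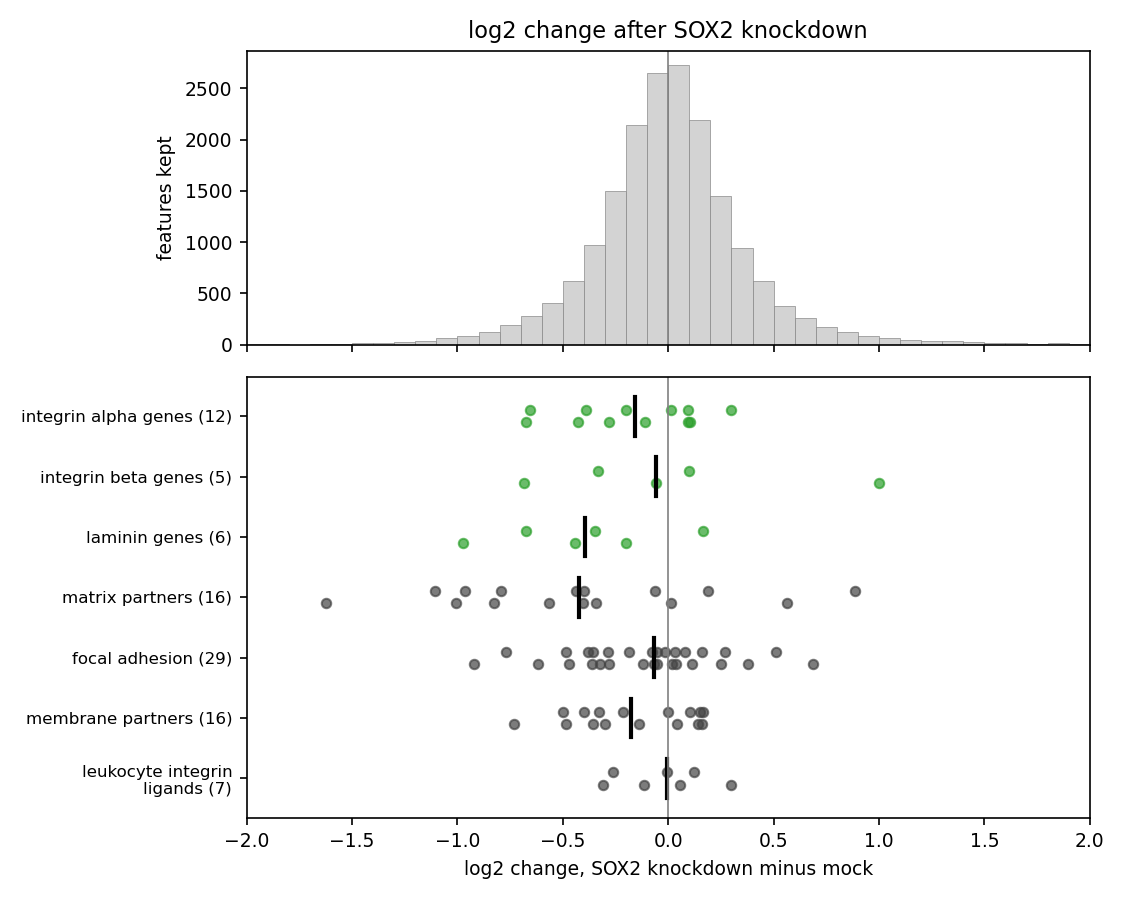
The upper panel counts all 18378 features by their log2 difference, SOX2 knockdown minus mock, in bins of 0.1. The lower panel has a point for each gene above background and a bar at the median of each list, -0.39 for laminin genes and -0.42 for their matrix partners, with the other lists between -0.18 and -0.01.

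Since *LAMA4*, *COL4A1* and *COL4A2* are also genes of vessel walls, markers of endothelium were examined beside them. Of 4 such markers 1 passed the filter, *KDR*, a VEGF receptor, with 0.111 and 0.134 in mock cells and 0.0521 and 0.0556 after knockdown. *KDR* was lower after knockdown with a log2 difference of -1.18 (limma adjusted p = 0.101). *CDH5* had an S/N over 3 on no array, and *PECAM1* and *VWF* on 1 array each. The summed signal of the 4 markers was 0.179 to 0.183 on the mock arrays and 0.0912 to 0.11 on the knockdown arrays. The part of such cells in the signals of the laminins and collagens was not tested.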

How the data were processed

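Total RNA of 4 LN229 cultures, 2 per group, was labelled and hybridised to 1-colour Applied Biosystems Human Genome Survey arrays by the authors. Groups and replicate numbers come from the labels' titles. The deposited scanner files hold intensity columns on a linear scale, of which the normalized signal was used, and per the file headers a signal-to-noise column, used as a score. A deposited table of linear ratio values, which the authors made per probe from the same arrays, served as an alternative. The software version is not given in the sources used here.

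Probes whose flag reached 5000 on an array were dropped, which took 0 of the 46 member probes. Signals and S/N were averaged over probes of 1 Celera gene ID, the 75th percentile over features was set to 1 on every array, and log2 was taken after a floor of 0.01. Where a symbol had several gene IDs, the brightest was used. Features with an S/N over 3 in both replicates of either group (18378 of 27739) were fitted with limma 3.58.1 in R 4.3.3 (lmFit and eBayes, two-sided, no block), with Benjamini-Hochberg adjustment over all of them. Ratios are of linear means. With 2 arrays per group their number limits the precision, and p-values measure the spread between these arrays. The fit was tested on simulated data.

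The members and gene lists were chosen with earlier results of these data known. Array values are given for members over 1.5-fold or with an unadjusted p under 0.05, and for laminin chains and laminin receptor chains. In other lists, genes past 2-fold or with an unadjusted p under 0.01 are named, some by their log2 difference alone. *CDH1*, *VIM*, *FERMT2* and other genes outside that rule were singled out after their values were seen. Alternatives covered scaling, background correction, floors, filters, flags, single probes, the variance model, a replicate block and the omission of single arrays. Only the crossed block was added after seeing the data. Probe and protein sequences were not used here, and gene coordinates are those of RefSeq promoters, since the files name no build. The values of 1 member are not reported here.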

Additional observations from a re-analysis of the deposited data

How the results depend on the processing

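Under the alternatives, 399 values for single genes and counts over all features kept direction and threshold side or, as counts, changed little. Another 21 newly passed the threshold or were counts that rose, and 19 no longer passed it or were counts that fell. A further 9 turned sign. Of the summary results 154 stayed on their side of the threshold, changed little as counts or stayed within the spread between replicates. Among them the integrin beta median turned to 0.16 without the second knockdown array. Of the rest, 15 moved further and 15 newly passed or were counts that rose. The last 1 no longer passed or was a count that fell. With median scaling, no further scaling and the authors' series table, in which the prior degrees of freedom of limma became infinite, 2 members (*ITGB8* and *LAMA4*) had an adjusted p under 0.05 each time, beside 669, 650 and 639 of all features, and 1 (*LAMA4*) with a variance trend, beside 240. Under the first 3 settings the *SOX2* difference of -1.72 also had an adjusted p under 0.05 (3.0e-07, 3.9e-07 and 3.0e-07), the members with knockdown arrays above mock arrays numbered 2, and the integrin alpha median was -0.19, -0.18 and -0.18. That median was -0.031 with normexp, -0.10 without the S/N filter and -0.11 with single probes. Over 2-fold, 2 members were lower without the S/N filter (*ITGA2B* and *LAMA1*, both below background), 1 was higher when no probe was left out by its flag, and a cutoff of 1.5 gave 1 higher and 5 lower. With 1 array left out, where the lone array is assumed to vary like the other group, members over 2-fold numbered 0 to 1 in each direction and those lower at an unadjusted p under 0.05 numbered 1 to 7. In these fits 4 to 7 members had all knockdown arrays above the mock arrays. This range cannot be compared with the 4 members of the main fit, since groups separate more readily with fewer arrays. The members kept also numbered 23 to 26, and the share over all features is not given for these fits. With 1 array left out, the integrin alpha median was -0.20 to -0.11 and the laminin median -0.53 to -0.28. Signs turned for *ITGA10* (-0.020, -0.017 and -0.014 under the first 3 settings, and between -0.27 and 0.29 with 1 array left out, below 0 without the second mock or the second knockdown array), *ITGA11* (0.066 with normexp), *ITGB3* (between -0.27 and 0.16, above 0 without the first mock or the second knockdown array) and *LAMC3* (between -0.12 and 0.45 with 1 array left out, below 0 without the second knockdown array, and 0.54 with normexp). The causes were not tested. Arrays with the same replicate number deviated from their group means with a correlation of -0.50, so the numbers were not taken as a pairing. With the replicate block 4 members (*ITGAV*, *ITGB5*, *LAMA4* and *LAMC1*) were lower and 1 (*ITGB8*) higher at an unadjusted p under 0.05, and 0 had an adjusted p under 0.05. With the crossed pairing, added after seeing the data, these counts were 10, 1 and 0. For *ITGB8*, whose signals were low but had an S/N over 3 on all 4 arrays, the size of the difference depended on the background correction.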
